A study of Homo sapiens with 9 samples.

Results

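Transcript levels of 9 genes for cell surface adhesion proteins (EPCAM, CD44, CD47, L1CAM, NRCAM, ALCAM, ICAM1, MCAM and BCAM) were followed across 9 polyadenylated RNA libraries. The genes were taken from the deposited counts by gene name, with the transcript of highest total count standing for each gene, and they are 9 of the 20878 genes in the table. SW480 cells derive from a human colorectal carcinoma and lack a working APC tumour suppressor, and the design asks what changes when APC is put back, with an empty-vector line to account for unspecific change. The parental line (SW480), the line R38.7 with the empty pEF vector (CONTROL) and the line D2.15 with pEF-mycAPC (APC) each gave 3 libraries from parallel plates, harvested 72 h after plating. Both derived lines were kept in G418 and the parental line was not, and plates of the APC line were seeded with fewer cells, in a ratio of 2 to 3.35. Each construct is represented by a single derived line, so the construct and the line cannot be told apart. Seeding density also differed in both APC comparisons, and the drug differed between SW480 and each derived line, and p-values cover just the plate-to-plate spread of each line.

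Adhesion molecules of this kind hold cells to their neighbours and to the matrix and pass signals inward. EPCAM forms contacts between like cells of simple epithelia, including the colon, and is not an immunoglobulin protein. L1CAM, NRCAM, ALCAM, ICAM1, MCAM and BCAM carry strings of immunoglobulin domains outside the cell, and CD47 carries such a domain above a membrane-spanning bundle. CD44 binds hyaluronan through a link module, and its stem is lengthened when a block of variable exons is spliced in. L1CAM and CD44 are often described as targets of beta-catenin, the protein that APC helps to destroy.

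Of the 9 genes, 8 passed the filter on low counts and NRCAM did not. Library totals ranged from 16456740 to 19358019 counts, and 3 counts, taken as the floor of detection, corresponded to 0.155 to 0.1823 CPM, the count scaled to a common library size. The APC transcript itself, which includes any product of the construct, stood at a mean of 145 CPM in the APC line beside 47.9 CPM in CONTROL and 49.3 CPM in SW480 (n = 3 for each mean and SD here and below). Keratins KRT8 and KRT18 were abundant in all 3 lines, whereas the colon markers KRT20 and CDX1 were below 0.15 CPM on average in each. Other colon epithelial markers differed between lines, in the order SW480, CONTROL and APC: CDX2 averaged 27.1, 24.7 and 14.9 CPM, VIL1 0.304, 0.414 and 4.62 CPM, and CDH1 7.23, 8.73 and 133 CPM. CDH1 and VIL1 were thus high in the same libraries as EPCAM, whereas CDX2 was lowest in the APC line. In the same order KRT8 averaged 2585, 2883 and 2971 CPM, KRT18 2306, 2797 and 2160 CPM, and KRT19 786, 373 and 647 CPM. The listed colon markers therefore did not share the EPCAM pattern as a group. Of the markers of other cell types, PTPRC, TYROBP, STMN2, COL3A1, DCN and TYR were at 0, and the summed level of the listed leukocyte, endothelial, neural, fibroblast or melanocyte genes reached at most 18.3 CPM in any library. Their part in the results below was not tested.

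The sequences below show the splice choice at which CD44 differed between lines. In the standard form the constant exon before the variable block is joined directly to the constant exon after it, and the 40 bases across that junction are printed with 20 bases from each side. In the second sequence exon v10 (204 bases) lies between the same 20-base flanks. Exons v8 (102 bases) and v9 (90 bases), which precede v10 when they are included, are printed on their own. Capitals mark the variable exons, and all are read 5′ to 3′ from GENCODE v29 transcripts.
CD44 standard junction: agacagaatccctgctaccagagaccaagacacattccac
CD44 with v10: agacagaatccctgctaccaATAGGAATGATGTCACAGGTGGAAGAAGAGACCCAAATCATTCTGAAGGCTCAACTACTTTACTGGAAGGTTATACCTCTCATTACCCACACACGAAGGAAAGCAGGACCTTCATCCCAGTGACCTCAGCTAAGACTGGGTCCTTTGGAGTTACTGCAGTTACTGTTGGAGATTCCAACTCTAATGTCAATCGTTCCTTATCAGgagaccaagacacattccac
CD44 exon v8: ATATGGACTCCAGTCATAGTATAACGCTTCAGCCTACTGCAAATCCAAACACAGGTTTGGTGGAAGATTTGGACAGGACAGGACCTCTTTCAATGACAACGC
CD44 exon v9: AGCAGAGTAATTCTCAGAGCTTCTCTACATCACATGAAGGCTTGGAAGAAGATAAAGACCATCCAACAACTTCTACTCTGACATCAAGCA
On GRCh38 these exons lie on the plus strand at chr11:35208105-35208206 (v8), chr11:35209965-35210054 (v9) and chr11:35211246-35211449 (v10). All are coding exons inside the CD44 gene, chr11:35138870-35232402. The reads themselves were aligned to hg19, so these positions serve only to identify the exons.

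**Figure D1:**
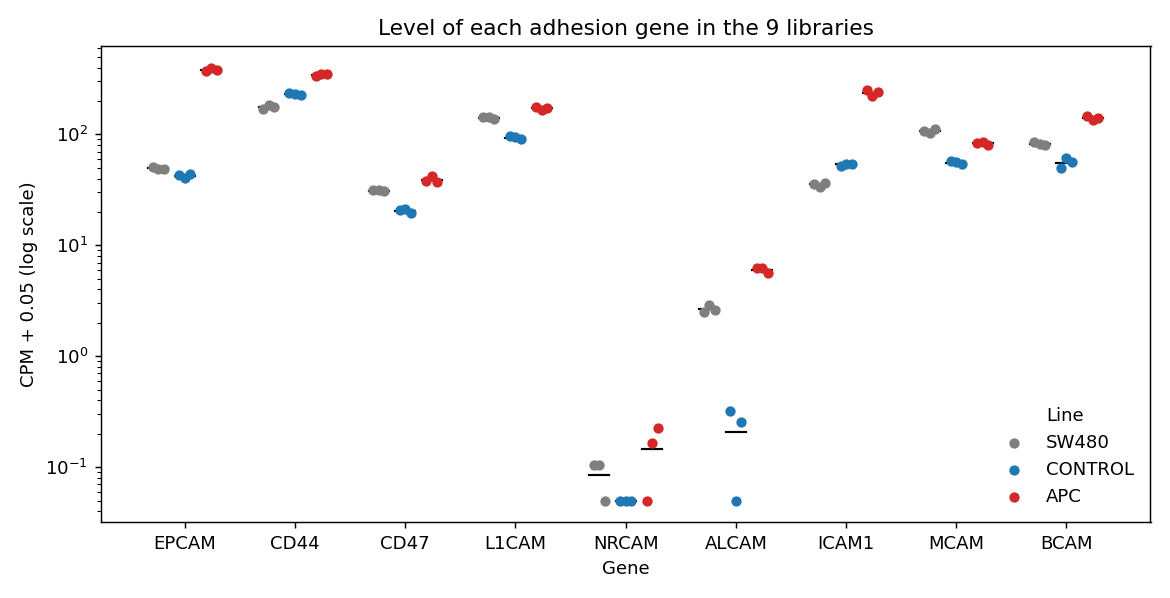
Level of each gene in each library, as CPM plus 0.05 on a log axis, with 1 point per library and a short black line at the mean of each line's 3 libraries. EPCAM libraries of the APC line lie between 369.7 and 400.2 CPM, above all 6 others, and ALCAM is near the floor in CONTROL.

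EPCAM had the highest level per length of the 9 genes in the APC line and the largest fitted rise of the 8 tested against SW480. Against CONTROL the fitted rise of ALCAM, a far rarer transcript, was larger. The level of EPCAM was 50.7, 48.4 and 49.0 CPM in the SW480 libraries, 42.7, 40.7 and 43.7 CPM in CONTROL, and 369.7, 400.2 and 377 CPM in the APC line. The lowest APC library was far above the highest of the other 6, and the CONTROL libraries lay just under those of SW480. EPCAM was 7.74-fold higher in APC than in SW480 (log2 fold change 2.95, SE 0.043, edgeR adjusted p = 3.83e-34) and 9.01-fold above CONTROL (3.17, SE 0.044, edgeR adjusted p = 1.55e-34). A larger absolute fold change was fitted for 4.8% and 4.07% of all genes tested in these comparisons. In bulk RNA, more cells expressing a gene and more RNA per cell cannot be told apart. CONTROL was 1.16-fold lower than SW480 (−0.22, SE 0.049, edgeR adjusted p = 0.000389). The gene has 1 transcript in the table and lies at chr2:47345158-47387601 (GRCh38), with no other annotated gene overlapping its exons.

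ICAM1, the endothelial and epithelial ligand of leukocyte integrins and a classical target of NF-kappaB, had the largest rise after EPCAM in APC against SW480. Its level was 36.0, 33.8 and 36.5 CPM in SW480, 51.9, 54.6 and 54.1 CPM in CONTROL, and 251, 221 and 239.6 CPM in APC. The 3 lines formed separate bands, with CONTROL a step above SW480 and APC far above both. The gene was 6.70-fold higher in APC than in SW480 (2.74, SE 0.049, edgeR adjusted p = 1.64e-31) and 4.43-fold above CONTROL (2.15, SE 0.047, edgeR adjusted p = 5.67e-29). It was also 1.51-fold higher in CONTROL than in SW480 (0.60, SE 0.055, edgeR adjusted p = 5.7e-11), whereas EPCAM was lower there. AC011511.2 and AC011511.5 overlap exons of ICAM1 on the opposite strand, and use of strand in counting is not given in the sources used here, so reads of such partners cannot be told apart.

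ALCAM, an immunoglobulin protein that binds itself and the lymphocyte receptor CD6, was rare in all 3 lines and nearly lost in CONTROL. It had 46, 53 and 48 reads in SW480, 5, 0 and 4 in CONTROL, and 112, 108 and 95 in APC. All 3 CONTROL libraries lay far under those of both other lines, so the vector line, and not the parent, had the lowest level. The mean was 2.63 ± 0.187 CPM in SW480, 0.159 ± 0.141 in CONTROL and 5.99 ± 0.378 in APC. ALCAM was 2.27-fold higher in APC than in SW480 (1.18, SE 0.16, edgeR adjusted p = 4.31e-08), and 15.2-fold lower in CONTROL than in SW480 (−3.93, SE 0.35, edgeR adjusted p = 2.55e-11). Against CONTROL the fitted difference of APC was 34.6-fold (5.11, SE 0.29, edgeR adjusted p = 3.24e-17), a ratio that rests on 9 CONTROL reads in all. On the log2(RPKM + 1) scale the same differences were 0.48 and 1.01 for the APC line and −0.52 for CONTROL, all called by limma. Only 0.182% of genes tested had a larger absolute fold change between CONTROL and SW480. The 15.2-fold difference and this rank rest on the same 9 CONTROL reads, at a mean near the floor of detection.

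L1CAM and NRCAM are neural relatives that couple to ankyrin, and L1CAM is also found at the invasive edge of colorectal tumours. L1CAM was abundant, with 142, 142 and 139 CPM in SW480, 96.0, 94.1 and 90.3 CPM in CONTROL, and 175, 167 and 173 CPM in APC. The lines did not overlap, and CONTROL was again the lowest. The rise in APC was 1.22-fold over SW480 (0.28, SE 0.038, edgeR adjusted p = 4.29e-08) and 1.84-fold over CONTROL (0.88, SE 0.039, edgeR adjusted p = 5.26e-20), and CONTROL was 1.51-fold under SW480 (−0.59, SE 0.039, edgeR adjusted p = 2.45e-14). LCA10, on the opposite strand, and U52112.1, on the same strand, overlap exons of L1CAM, and their reads cannot be told apart from those of L1CAM. The difference from SW480 was modest among these lines, since 57.3% of genes tested had a larger one. NRCAM had 1, 1 and 0 reads in SW480, 0 in each CONTROL library, and 0, 2 and 3 in APC. No library exceeded the floor of 3 reads, so NRCAM was not detectable at this depth and no fold is given.

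MCAM, an adhesion molecule of vessels and melanoma and a co-receptor for WNT5A, was the single gene of the 8 that fell in APC against SW480. It measured 108, 102 and 111 CPM in SW480, 57.2, 56.3 and 53.6 CPM in CONTROL, and 84.4, 85.3 and 79.6 CPM in APC. The APC libraries thus lay between those of the other lines, without overlap on either side. MCAM was 1.29-fold lower in APC than in SW480 (−0.36, SE 0.045, edgeR adjusted p = 8.41e-09) but 1.49-fold above CONTROL (0.58, SE 0.048, edgeR adjusted p = 8.73e-13). CONTROL was 1.92-fold lower than SW480 (−0.94, SE 0.047, edgeR adjusted p = 1.11e-17). The direction of its difference in the APC line therefore depended on which line it was compared with. CBL, on the opposite strand, and MIR6756, on the same strand, overlap MCAM exons, and their reads cannot be told apart from those of MCAM.

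BCAM, a receptor for laminins that contain the alpha-5 chain, rose in APC against both lines. Its levels were 85.8, 81.3 and 80.0 CPM in SW480, 49.9, 60.6 and 56.1 CPM in CONTROL, and 146, 134 and 141 CPM in APC. APC libraries were the highest and CONTROL libraries the lowest, and CONTROL had the widest relative spread of the 8 genes outside ALCAM, 9.66% of its mean. BCAM was 1.70-fold higher in APC than in SW480 (0.77, SE 0.051, edgeR adjusted p = 4.6e-14) and 2.53-fold above CONTROL (1.34, SE 0.053, edgeR adjusted p = 2.26e-19). It was 1.49-fold lower in CONTROL than in SW480 (−0.57, SE 0.055, edgeR adjusted p = 8.24e-10).

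CD47, which binds SIRPA on phagocytes and thrombospondin in the matrix, showed the same order of lines at a lower level. It measured 31.5, 31.2 and 30.7 CPM in SW480, 20.6, 21.3 and 19.7 CPM in CONTROL, and 37.8, 42.1 and 37.2 CPM in APC. No library of one line overlapped those of another. CD47 was 1.25-fold higher in APC than in SW480 (0.33, SE 0.059, edgeR adjusted p = 8.86e-06) and 1.90-fold above CONTROL (0.93, SE 0.063, edgeR adjusted p = 5.17e-15). CONTROL was 1.52-fold below SW480 (−0.60, SE 0.064, edgeR adjusted p = 1.75e-09).

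CD44 rose stepwise from SW480 to CONTROL to APC. Its level over all exons was 171, 184 and 175 CPM in SW480, 237, 232 and 227 CPM in CONTROL, and 335, 347 and 350.2 CPM in APC. Like ICAM1, it was highest in APC and lowest in the parental line, and the lines did not overlap. CD44 was 1.95-fold higher in APC than in SW480 (0.96, SE 0.038, edgeR adjusted p = 1.09e-21), 1.48-fold higher in APC than in CONTROL (0.57, SE 0.037, edgeR adjusted p = 1.71e-15) and 1.31-fold higher in CONTROL than in SW480 (0.39, SE 0.038, edgeR adjusted p = 1.87e-10).

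**Figure D2:**
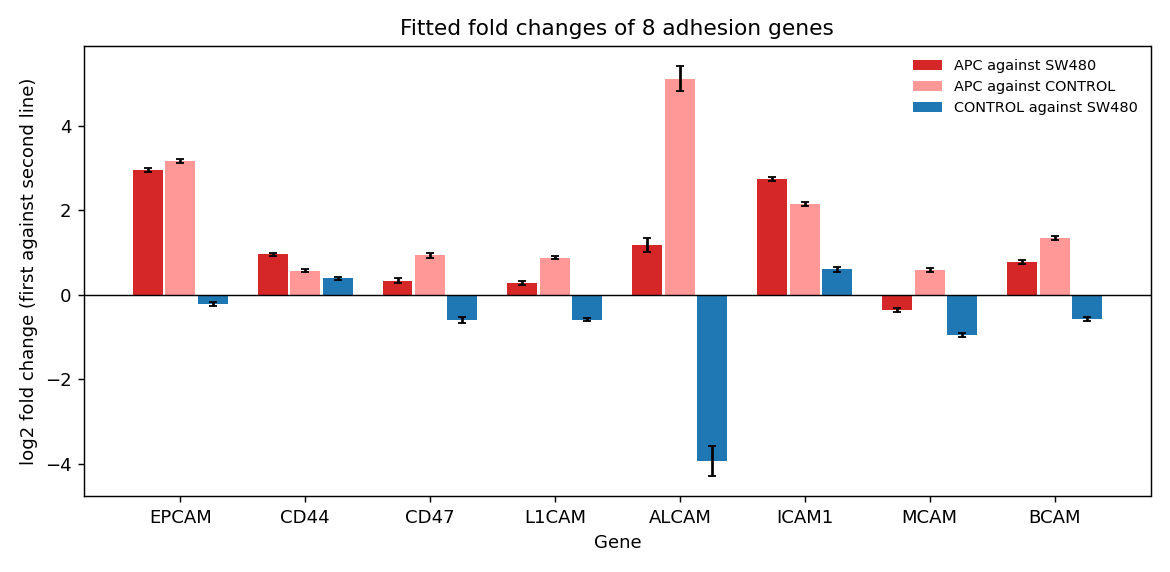
Fitted log2 fold change of the 8 tested genes in each comparison, with bars starting at 0 and error bars of 1 SE. All 8 bars for APC against CONTROL point up, MCAM points down in APC against SW480, and 6 of 8 bars point down for CONTROL against SW480.

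Counted over the 8 tested genes, 7 rose and 1 fell in APC against SW480, where 72.5% of all 14255 genes tested were called (35.6% higher and 36.9% lower). In APC against CONTROL all 8 rose, where 70.2% of genes were called (34.8% higher and 35.4% lower). In CONTROL against SW480, 2 rose and 6 fell, where 50.0% of genes were called (25.3% higher and 24.7% lower). Libraries of the lines compared did not overlap for any of the 8 genes, as for 73.1%, 73.4% and 56.6% of genes in the same order. Being called is therefore common in these data, and the sizes tell the genes apart better than the calls. The median log2 fold change of the 8 was 0.86, 1.13 and −0.58 in the 3 comparisons, beside −0.01 over all genes tested in each. The genes were chosen with earlier results of these data known, so these medians describe only the genes chosen. Each line enters 2 of the 3 comparisons, so their values are not independent. When a difference of more than 1.5-fold was required, 5, 6 and 2 of the 8 genes were called. Those 2 in CONTROL against SW480 were ALCAM and MCAM.

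Levels of different genes were compared per transcript length, in the deposited RPKM (reads scaled by transcript length and library size). In SW480, MCAM (28.7 ± 1.06 RPKM), CD44 (27.5 ± 1.09), EPCAM (25.7 ± 0.669), L1CAM (25.0 ± 0.390) and BCAM (21.5 ± 0.904) lay close together, and libraries of MCAM and CD44 overlapped. ICAM1 (9.74 ± 0.358), CD47 (5.20 ± 0.104) and ALCAM (0.479 ± 0.0352) followed at lower levels. In CONTROL, CD44 led at 35.6 ± 0.852 RPKM, followed by EPCAM at 21.7 ± 0.858 and L1CAM at 16.4 ± 0.540. MCAM (14.7), ICAM1 (14.5) and BCAM (14.3) could not be ordered there, because their libraries overlapped. In the APC line EPCAM led at 195 ± 9.40 RPKM, 3.05 times the level of ICAM1, at 63.9 ± 3.65. CD44 (52.5 ± 1.75), BCAM (35.7 ± 1.23), L1CAM (29.8 ± 0.533), MCAM (21.8 ± 0.728), CD47 (6.38 ± 0.463) and ALCAM (1.07 ± 0.0631) followed without overlap between neighbours. EPCAM thus led in the APC line alone, and MCAM, which led in SW480, was exceeded there by 5 other genes.

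The deposited counts give 8 transcripts of CD44, and the nested pairs among them separate reads of the variable exons from the rest. How reads were counted is not given in the sources used here, but the nested counts have the pattern of reads given to every transcript they touch. If so, the reads of the longest transcript that were missing from the standard one fall in the block v2 to v10, which spans 1143 bases in the mRNA. This block had 22, 45 and 31 reads in SW480, 53, 39 and 44 in CONTROL, and 916, 853 and 793 in APC. These were 0.694%, 1.31% and 0.95% of CD44 reads in the SW480 libraries, 1.2%, 1.03% and 1.01% in CONTROL, and 15.0%, 14.2% and 13.2% in APC. Variable-exon reads were thus scarce in both lines without the APC construct and present in every APC library. In an edgeR fit with the segments added to all genes, chosen after seeing the data, the block was 27.6-fold higher in APC than in SW480 (4.79, SE 0.11, edgeR adjusted p = 1.2e-27) and 19.3-fold above CONTROL (4.27, SE 0.11, edgeR adjusted p = 5.81e-27). Reads of the standard transcript rose less, from 175 ± 6.05 CPM in SW480 and 229 ± 4.63 in CONTROL to 295 ± 9.84 in APC.

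Within the block, the segments differed. Exon v2 had 1 read in all SW480 libraries together, 0 in CONTROL, and 5, 2 and 7 in the APC libraries. Exons v3 to v7 (618 bases) had 9, 20 and 11 reads in SW480, 19, 11 and 15 in CONTROL, and 283, 301 and 250 in APC. Exons v8 and v9 (192 bases) had 2, 9 and 9 reads in SW480, 13, 9 and 4 in CONTROL, and 309, 273 and 262 in APC. The APC line was the high one in each segment, and v8 with v9, though shorter, held about as many reads as v3 to v7. Exon v10 had 11, 16 and 10 reads in SW480, 21, 19 and 25 in CONTROL, and 319, 277 and 274 in APC. Per 100 bases, the APC line had 0.207 CPM in v2, 2.57 in v3 to v7, 8.35 in v8 and v9, 8.10 in v10, and 13.6 in the constant exon after v10. That constant exon has only 63 bases, and over the whole standard transcript the value was 6.44 CPM per 100 bases. The form with v8 to v10, the exons printed above, is known as the epithelial form of CD44. The assignment of reads that cross exon junctions is not given in the sources used here, so these are shares of reads and not of mRNA molecules.

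**Figure D3:**
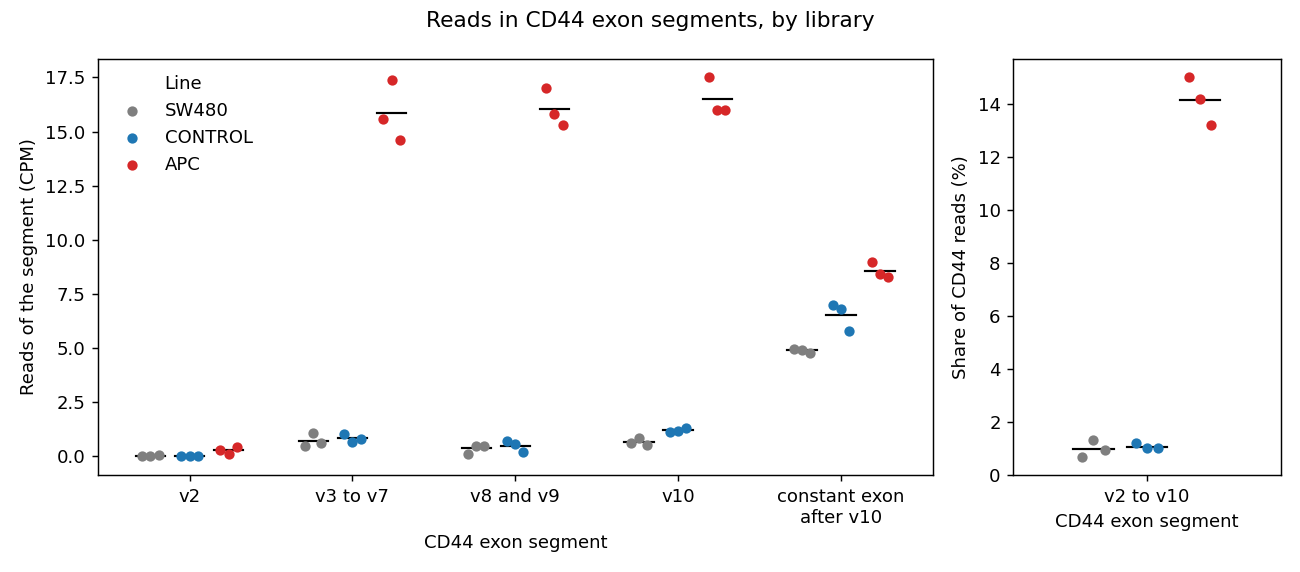
Left, reads of each CD44 exon segment in each library, in CPM, with a black line at the mean of each line. Right, reads of v2 to v10 as a percentage of CD44 reads. Segments v3 to v7, v8 and v9, and v10 each exceed 14 CPM in the APC libraries and stay under 1.5 CPM in the others.

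Segments v3 to v7, v8 and v9, and v10 were 21.9-fold, 44-fold and 24.7-fold higher in APC than in SW480 (edgeR adjusted p = 4.43e-22, 1.51e-21 and 1.16e-23). Against CONTROL they were 18.9-fold, 32.9-fold and 13.7-fold higher (edgeR adjusted p = 1.05e-21, 3.77e-21 and 1.57e-22). The constant exon after v10, in the same fit, was 1.75-fold higher than in SW480 (edgeR adjusted p = 1.12e-07) and 1.32-fold above CONTROL (edgeR adjusted p = 0.00146). Between CONTROL and SW480 the block was 1.43-fold higher (0.52, SE 0.20, edgeR adjusted p = 0.0326), a call that was lost without SW480 replicate 1 (0.30, edgeR adjusted p = 0.241), without SW480 replicate 3 (0.48, edgeR adjusted p = 0.0883) or without CONTROL replicate 1 (0.41, edgeR adjusted p = 0.145). Of its segments, v10 was 1.8-fold higher in CONTROL (0.85, SE 0.28, edgeR adjusted p = 0.0106, and 0.05 without SW480 replicate 3), while v3 to v7 and v8 with v9 did not pass (edgeR adjusted p = 0.616 and 0.477). The constant exon was 1.33-fold higher there (edgeR adjusted p = 0.00442). In the GENCODE v29 annotation CD44-AS1, on the opposite strand, overlaps the constant exon after v10 and none of the exons v2 to v10.

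The ratio of each further transcript to its gene's main transcript was tested over all genes with limma, on log2 ratios. Of 13 such transcripts of ALCAM, BCAM, CD44, CD47 and L1CAM that passed the count filter, 5 were called in APC against SW480, where 3.55% of 12197 transcripts were called, and 5 in APC against CONTROL, where 4.25% were. All of them were CD44 transcripts without variable exons or with fewer of them, and all were lower in APC (as were 1.56% of transcripts against SW480 and 2.07% against CONTROL). They are nested in one another and share most of their reads, so they are not 5 separate findings. The standard form had 99.0% ± 0.310 of the longest transcript's reads in SW480, 98.9% ± 0.106 in CONTROL and 85.8% ± 0.904 in APC, a log2 difference of −0.21 against SW480 (limma adjusted p = 2.26e-05) and −0.20 against CONTROL (limma adjusted p = 5.73e-05). In CONTROL against SW480, 0 of the 13 were called and 0.254% of transcripts overall (0.0738% lower in CONTROL).

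No isoform ratio of the other genes passed the test. The ALCAM form without a short exon had 97.4%, 90.0% and 98.4% of the main form's reads in SW480, CONTROL and APC, the middle value from the 2 CONTROL libraries with reads. For CD47, the form with the shorter tail had 99.0%, 99.4% and 98.9%. For BCAM, the form that lacks the retained intron had 84.3%, 83.4% and 84.8%. The ratios of these forms did not pass the test in any comparison (limma adjusted p from 0.615 to 0.973). A form of ALCAM cut short at its end had 54.1%, 67.5% and 43.5%. Its difference between APC and CONTROL, −0.87 on the log2 scale, missed the threshold (limma adjusted p = 0.0768). In CONTROL it had only 3, 0 and 3 reads, beside 5, 0 and 4 of the main form. The test included the CONTROL library without reads, where the added pseudocount alone makes both forms equal, whereas the 67.5% leaves that library out. The difference therefore rests on very few reads. L1CAM forms differ by very short exons, and at most 3 reads per library told them apart.

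Splicing regulators were read as the genes that act on such exons. Counts of this and the next 4 lists stand beside the shares of all genes called higher and lower, which were 35.6% and 36.9% for the APC line against SW480, 34.8% and 35.4% for the APC line against CONTROL, and 25.3% and 24.7% for CONTROL against SW480. Of 21 tested, 6 were higher, 7 lower and 8 not called in APC against SW480, with a median log2 fold change of −0.05 beside −0.01 over all genes. Against CONTROL, 6 were higher and 9 lower, and in CONTROL against SW480, 6 were higher and 0 lower. ESRP1, an epithelial splicing factor known to favour inclusion of CD44 variable exons, had 1.72, 1.34 and 1.02 CPM in SW480, 3.33, 3.62 and 3.01 CPM in CONTROL, and 86.2, 91.3 and 87.2 CPM in APC. Its paralogue ESRP2 stood at 25.8 ± 1.57, 28.1 ± 1.21 and 63.5 ± 3.66 CPM. The APC libraries were thus high for both factors and for the CD44 variable exons, and the part of these factors in the CD44 result was not tested. CONTROL had 2.42 times the ESRP1 level of SW480 (edgeR adjusted p = 4.49e-07). RBFOX2 was 0.27 higher on the log2 scale than in SW480. HNRNPA1, KHDRBS1 and TRA2B fell by 0.15, 0.11 and 0.10 on the log2 scale (edgeR adjusted p = 0.00174, 0.0119 and 0.0168). MBNL2 was higher in CONTROL than in SW480 by 0.46.

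Among 30 tested relatives (mostly other immunoglobulin adhesion genes and nectins), 10 rose and 14 fell in APC against SW480, and 12 rose and 12 fell against CONTROL. Their median log2 fold changes were −0.10 and −0.03, beside −0.01 over all genes. F11R, a tight junction adhesion molecule, rose from 15.8 ± 1.46 CPM in SW480 and 16.7 ± 0.282 in CONTROL to 79.4 ± 3.21 in APC. CEACAM1, a homophilic epithelial adhesion protein, rose from 2.04 ± 0.577 and 2.61 ± 0.282 to 25.4 ± 1.07 CPM, and PVR, a nectin-like receptor, from 105 ± 5.25 and 142 ± 2.24 to 200.3 ± 9.26 CPM. In the other direction the nectin PVRL1 stood at 112 ± 3.34, 92.8 ± 1.41 and 40.9 ± 2.20 CPM, CADM4 at 91.9 ± 7.0, 102 ± 0.410 and 38.4 ± 2.97, and CD99L2 at 62.6 ± 1.69, 62.2 ± 1.12 and 33.3 ± 1.36 CPM. In CONTROL against SW480, 8 relatives rose and 11 fell, with a median of −0.06. MPZL2 fell by 1.11 and PVRL3 by 2.00 on the log2 scale there (edgeR adjusted p = 3.8e-15 and 1.32e-14).

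Of 25 tested binding partners, 12 rose and 10 fell in APC against SW480 (median 0.12), 11 rose and 13 fell against CONTROL (−0.13), and 9 rose and 11 fell in CONTROL against SW480 (−0.11). CLDN7, a claudin that associates with EPCAM, rose from 5.96 ± 0.797 CPM in SW480 and 7.21 ± 0.477 in CONTROL to 146 ± 8.34 in APC. CD9, a tetraspanin found in the same membrane complexes, went from 376 ± 16.5 and 337 ± 8.19 to 754 ± 13.9 CPM. THBS1, a ligand of CD47, rose from 31.2 ± 3.32 and 32.6 ± 2.72 to 154 ± 3.88 CPM. These 3 partners were higher in APC, as their receptors or complex members were. They were named for that direction, so the shared direction follows from the choice. WNT5A, a ligand read through MCAM, fell from 190.4 ± 7.95 and 132 ± 2.79 to 53.1 ± 2.38 CPM, and the neuropilin ligand SEMA3B from 108 ± 7.35 and 61.3 ± 3.39 to 15.8 ± 1.6 CPM. HAS2, a synthase gene for the hyaluronan that CD44 binds, fell from 20.5 ± 1.24 and 15.3 ± 2.09 to 1.04 ± 0.253 CPM. The hyaluronan synthase gene HAS3, named after its values were seen, stood at 12.2 ± 1.38, 15.2 ± 0.679 and 12.3 ± 1.43 CPM. HAS3 differed by 0.01 in APC against SW480 (edgeR adjusted p = 0.929) and by −0.30 against CONTROL (edgeR adjusted p = 0.00416). NRP2, a partner of L1CAM relatives in semaphorin signalling, was higher in CONTROL than in SW480 by 1.42, and the laminin chain gene LAMB2 was lower by 0.97 on the log2 scale. SIRPA and LAMA5 are named here after their values were seen, because their products bind CD47 and BCAM. SIRPA fell by 0.98 in APC against SW480 (edgeR adjusted p = 2.4e-16), and LAMA5 differed by 0.12, which did not pass (edgeR adjusted p = 0.258). Against CONTROL, LAMA5 rose by 0.71 in APC (edgeR adjusted p = 0.000218), and it fell by 0.58 in CONTROL against SW480 (edgeR adjusted p = 0.00122), with means of 597 CPM in SW480, 399 in CONTROL and 650.3 in APC.

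**Figure D4:**
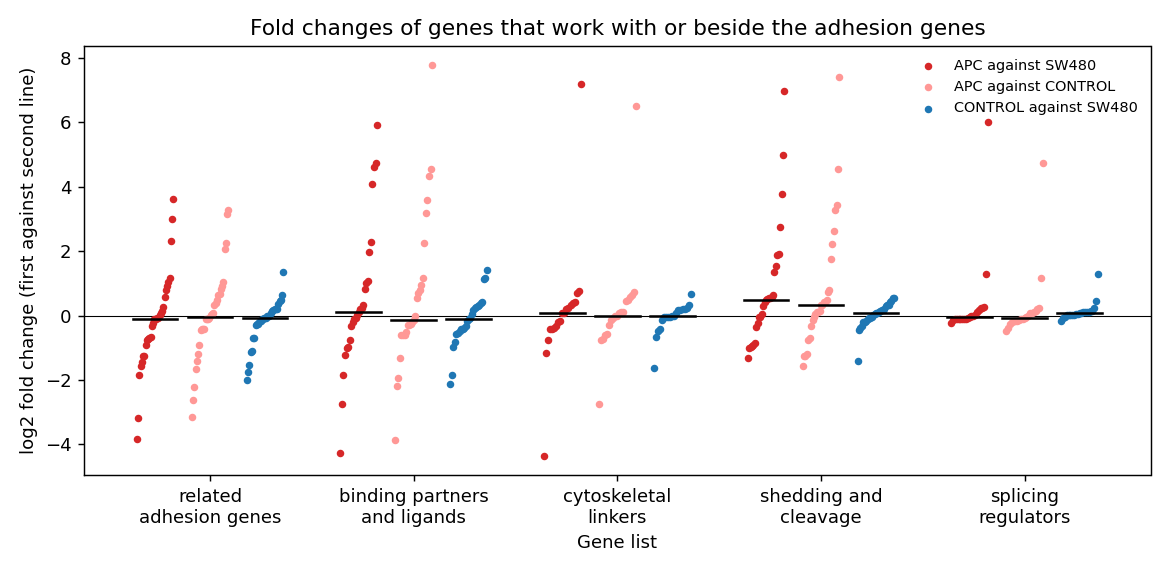
Log2 fold change of each tested gene in the 5 lists, 1 point per gene in ascending order, with a black line at the median of each list in each comparison. The medians lie between −0.13 and 0.47, and ESRP1 is the topmost splicing regulator in each comparison.

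Proteins that tie these receptors to the cytoskeleton moved in both directions. Of 19 tested, 8 rose and 9 fell in APC against SW480 (median 0.08), 8 rose and 8 fell against CONTROL (0.00), and 6 rose and 5 fell in CONTROL against SW480 (−0.01). ANK3, the ankyrin of epithelial lateral membranes, was called higher in APC, at 14.2 ± 0.595 CPM beside means of 0.0895 in SW480 and 0.146 in CONTROL that lie under the floor, so no fold is given. DLG3 rose by 0.76 and NF2, the ERM relative that competes for the CD44 tail, by 0.71 on the log2 scale against SW480. CRMP1, a relay of semaphorin signals to microtubules, fell from 22.6 ± 0.729 CPM in SW480 and 7.35 ± 0.583 in CONTROL to 1.10 ± 0.347 in APC. The spectrin gene SPTAN1 fell by 0.77 and ANK2 by 1.17. DPYSL2 was lower in CONTROL than in SW480 by 0.49.

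Proteases that shed EPCAM, CD44, L1CAM and their relatives, with the inhibitors and related enzymes, formed the list with the highest median. All lists were chosen with earlier results of these data known. Of 27 tested, 16 rose and 7 fell in APC against SW480 (median 0.47), 17 rose and 8 fell against CONTROL (0.34), and 10 rose and 4 fell in CONTROL against SW480 (0.08), beside −0.01 over all genes. PLAU, the urokinase gene, rose from 8.97 ± 0.314 CPM in SW480 and 12.2 ± 0.205 in CONTROL to 286 ± 7.15 in APC. ST14, the membrane protease matriptase, which cleaves EPCAM, rose from 21.4 ± 0.649 and 27.1 ± 1.32 to 294 ± 11.6 CPM. MMP9, a gelatinase that docks on CD44, rose from 0.430 ± 0.161 and 0.316 ± 0.0502 to 55.1 ± 0.869 CPM. All 3 genes were thus low in both lines without the construct. SPINT1 and SPINT2, inhibitors of matriptase named after their values were seen, rose with it, by 2.75 and 1.55 on the log2 scale against SW480. The sheddases ADAM10 and ADAM17, named likewise, rose by 0.47 and 0.29 against SW480 and by 0.43 and 0.12 against CONTROL (edgeR adjusted p = 0.0373 for the last). Other proteases of the list went the other way. MMP14 and BACE1, named likewise, had log2 fold changes of −1.32 and −0.98 against SW480, and −1.26 and −1.19 against CONTROL. The inhibitor TIMP3, also named so, rose by 1.91 against SW480 and 2.22 against CONTROL. Among the genes that fell were CTSB, at 448 ± 10.2, 657 ± 6.57 and 221 ± 3.94 CPM, the inhibitor TIMP2, at 253 ± 9.76, 221 ± 5.25 and 135 ± 3.81 CPM, and QPCT, a glutaminyl cyclase, at 147 ± 2.50, 183 ± 0.878 and 76.4 ± 3.32 CPM. Its paralogue QPCTL, which modifies CD47 and was named after its values were seen, went the other way, at 20.5 ± 1.07, 25.4 ± 1.0 and 32.2 ± 0.925 CPM, a rise in APC of 0.65 against SW480 and 0.34 against CONTROL (edgeR adjusted p = 5.62e-11 and 1.23e-05). PLAT had its lowest level in CONTROL, at 5.86 ± 0.355 CPM beside 15.4 ± 1.14 in SW480 and 57.3 ± 1.64 in APC.

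Genes with the most similar pattern over the 9 libraries were sought among 11634 genes for EPCAM, ICAM1 and ALCAM, the genes with over 2-fold differences in both APC comparisons. The measure was the root mean square difference of log2(CPM + 0.5), with each gene centred on its own mean, and it describes only these libraries. Among the nearest to EPCAM were ELOVL7 (0.084) and ALDH1A3 (0.095). ALDH1A3, for example, averaged 148 CPM in SW480, 113 in CONTROL and 1022 in APC. Nearest to ICAM1 were MTUS1 (0.12), KLF4 (0.12) and ERMP1 (0.13). In each, CONTROL was above SW480, by 0.77, 0.57 and 0.38 on the log2 scale. Nearest to ALCAM were TNC (0.23), LYPD6 (0.33) and LYPD1 (0.37), at larger distances. TNC averaged 26.9, 5.89 and 70.1 CPM in SW480, CONTROL and APC, and so shared the low level in CONTROL.

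Promoters were searched for short motifs in 300-base windows from RefSeq (GRCh38.p14), which matched 8 of the 9 genes, all but EPCAM, with 12 windows in all because some genes have several start sites. The kappaB motif GGAAATTCC, searched on both strands, was in the ICAM1 window and in 0.461% of all 35116 promoters. The other kappaB motifs searched, 2 longer forms of 10 bases, were in none of the 12 windows. The ICAM1 match starts 186 bases before the annotated start of ICAM1. It is set in capitals in the 250 bases upstream of that start, chr19:10270870-10271119 on the plus strand. ICAM1 differed between all 3 lines, as did the other tested genes, and a part of this motif in that difference was not tested.
ICAM1 upstream region: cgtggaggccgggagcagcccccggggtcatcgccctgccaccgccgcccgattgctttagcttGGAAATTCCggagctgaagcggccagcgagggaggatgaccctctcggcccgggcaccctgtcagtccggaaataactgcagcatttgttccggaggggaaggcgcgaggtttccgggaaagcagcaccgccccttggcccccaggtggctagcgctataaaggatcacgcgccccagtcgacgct
The TCF/LEF core motifs CTTTGAA and CTTTGAT were in 0 of the 12 windows, and in 4.43% and 2.62% of all promoters. The E-box CAGGTG, to which ZEB and SNAI repressors can bind, was in 4 of the 12 windows (of ALCAM, ICAM1, MCAM and NRCAM, 1 each) and in 20.6% of all promoters. The AP-1 motif TGACTCA, with its reverse complement TGAGTCA, was in a window of NRCAM and in 4.95% of all promoters. These matches describe letters only and show no binding.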

How the data were processed

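Polyadenylated RNA of 9 libraries was sequenced, 3 per line. Per the submitters' processing notes, reads were handled with Trimmomatic, TopHat and GATK on hg19, without versions. Which program counted the reads, and on which annotation, is not given in the sources used here. Deposited counts are whole numbers of reads per RefSeq transcript (39276 transcripts), and the authors' RPKM values equal the count over transcript length and 1 constant per library, within a relative tolerance of 0.0001. Of 18398 further transcripts, 92.0% never exceeded their gene's highest, the pattern of reads entering every transcript they touch (an inference from the counts), and 1 transcript per gene was used.

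The 9 genes and all lists were chosen with earlier results of these data known. All 9 libraries entered 1 edgeR 4.0.16 fit (R 4.3.3; filterByExpr, TMM factors, robust quasi-likelihood test), with Benjamini-Hochberg adjustment over 14255 genes and a threshold of 0.05. The biological coefficient of variation was 3.56%. Totals ran from 16456740 to 19358019 counts, and replicates of a line differed by more than sampling noise (chi-square per degree of freedom 1.34 to 5.38). Log2 ratios of further transcripts with a mean count of at least 20 were tested with limma 3.58.1 (pseudocount 0.5, 12197 transcripts). On simulated data, in which 100 of 14255 genes differed 2-fold and 100 differed 1.5-fold, edgeR recovered 89% and 83% of them for APC against SW480. It also called 9 unchanged genes. In the data themselves 72.5% of genes were called in that comparison, so the simulated shares do not give the recovery there.

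Genes named from the lists were up to 3 per direction by adjusted p in APC against SW480, called the same way against CONTROL, with at least 5 CPM in 1 line, and up to 2 by adjusted p in CONTROL against SW480. Some genes that the rules name are left out of the text. Alternatives were DESeq2 1.42.0, other scaling, no filter, summed transcripts, limma on log2 RPKM (pseudocount 1 or 0.1), a block for replicate number, fits of 6 libraries, a required fold of 1.5 and omission of each library in turn. Exons and sequences came from GENCODE v29 and promoters from RefSeq, both on GRCh38, not the build of the reads.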

Additional observations from a re-analysis of the deposited data

How the results depend on the processing

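The 8 genes were called in all 3 comparisons under every alternative but the minimum fold of 1.5, and none changed direction. With that minimum, 5 genes were called in APC against SW480 (L1CAM, MCAM and CD47 were not), 6 in APC against CONTROL (MCAM and CD44 were not) and 2 in CONTROL against SW480. Over all genes, it left 3501, 3364 and 668 calls in place of 10335, 10006 and 7131. The ALCAM difference between APC and CONTROL ran from 1.01 on the log2(RPKM + 1) scale and 3.20 with a pseudocount of 0.1 to 5.65 without CONTROL replicate 1. Without the filter NRCAM was called in APC against CONTROL (edgeR adjusted p = 0.045) on 5 reads. With a pseudocount of 5, a sixth transcript ratio, of the short ALCAM form, passed against CONTROL, on 3, 0 and 3 CONTROL reads. For v10 of CD44, the call in CONTROL against SW480 was lost without SW480 replicate 3 (0.72, edgeR adjusted p = 0.05). Deviations of libraries with the same replicate number had correlations of −0.157 to 0.26, beside −0.174 to 0.167 for different numbers. The value of 0.26 was that of replicate 1 of SW480 and of APC. Same numbers thus did not deviate together regularly, but these values do not settle whether some samples are paired. A fit with the replicate block called 8 of the 8 genes in each comparison and 10296, 9992 and 7109 genes in all. The depth limits NRCAM, ALCAM in CONTROL and CD44 variable exons in SW480 and CONTROL.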
